A study of Drosophila melanogaster with 6 samples.

Results

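The comparison set the carcass of flies carrying a foxo hairpin in flight muscle against the carcass of driver controls, gene by gene. Of 17609 genes in the tables, the 8589 with at least 30 reads in both carcass libraries together were compared, out of 11216 genes with any read in the series. The genotypes were Act88F-Gal4 crossed to UAS-FoxoRNAi and Act88F-Gal4 crossed to w1118. Both therefore carried Act88F-Gal4, a driver of the indirect flight muscles of the thorax, and neither label gives an agent meant to act in the carcass. Flies were labelled 10 days old, and the protocol moved them 2 to 3 days after eclosion to sucrose and yeast food for 10 days, so the label and the protocol do not give quite the same age. Rearing was at 25 °C with 12 h of light. Carcass means the body wall with its fat body after the eggs and the intestine were taken out. The labels give no sex, number of pooled flies, hour of dissection or RNAi line. Each side was 1 library, so no difference has a replicate check, no p-value was computed and every value describes this pair of libraries.

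Foxo is a transcription factor that insulin signalling keeps out of the nucleus. The fat body is the fly's counterpart of liver and adipose tissue: it makes and stores triglyceride, loads it onto circulating lipoproteins, makes yolk protein in females and secretes antimicrobial peptides. The carcass also holds epidermis, oenocytes, muscle, haemocytes, nerves and the remains of the reproductive tract, and expression in it is a sum over these.

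The control carcass library held 15621447 counted reads and the foxo RNAi library 13274574. A ratio below always means foxo RNAi over control, after TMM scaling (a trimmed-mean factor for library composition) and with 0.5 added to each count. Each interval is a 95% Clopper-Pearson interval of the 2 counts. Intervals and floors reflect counting error alone. PCR copies of 1 molecule may be counted more than once, so even that error may be understated. Higher or lower below means a ratio of at least 2-fold whose interval also stays beyond 1.5-fold. For a library with 0 reads, 3 counts stood in for the 0, and such a fold is written "at least". It keeps the other count fixed and is not the interval bound. That bound was nearer to equality for each gene given such a fold, as for Osi6 with 493 against 606. Those 3 counts are worth 0.203 CPM (reads scaled to library size) in the control and 0.213 CPM in the foxo RNAi library. Depth over all 6 libraries of the series, which also hold thorax and gut, ran from 13274574 to 34385727 reads.

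By this rule 293 genes were higher (3.41% of those compared) and 877 were lower (10.2%). Every count of called list members below is to be read against these shares. The median log2 ratio over all compared genes was 0.06, with quartiles of -0.44 and 0.40, and 84.6% of genes lay within 2-fold. Calls at 4-fold or more numbered 110 higher and 301 lower. The balance depended on the scaling: higher genes made up 25.0% of calls, and 41.8% when libraries were scaled by total count, which moves every log2 ratio up by 0.17. In carcass the targeted gene, foxo, had 1637 reads in the control and 1192 after foxo RNAi. Its log2 ratio of -0.39 stayed inside the rule. In thorax, the tissue of the driver, the log2 ratio of foxo was -0.48, and in gut it was -0.35, neither of them called. The foxo gene lies on 3R from 14056945 to 14087978 on the plus strand.

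**Figure D1:**
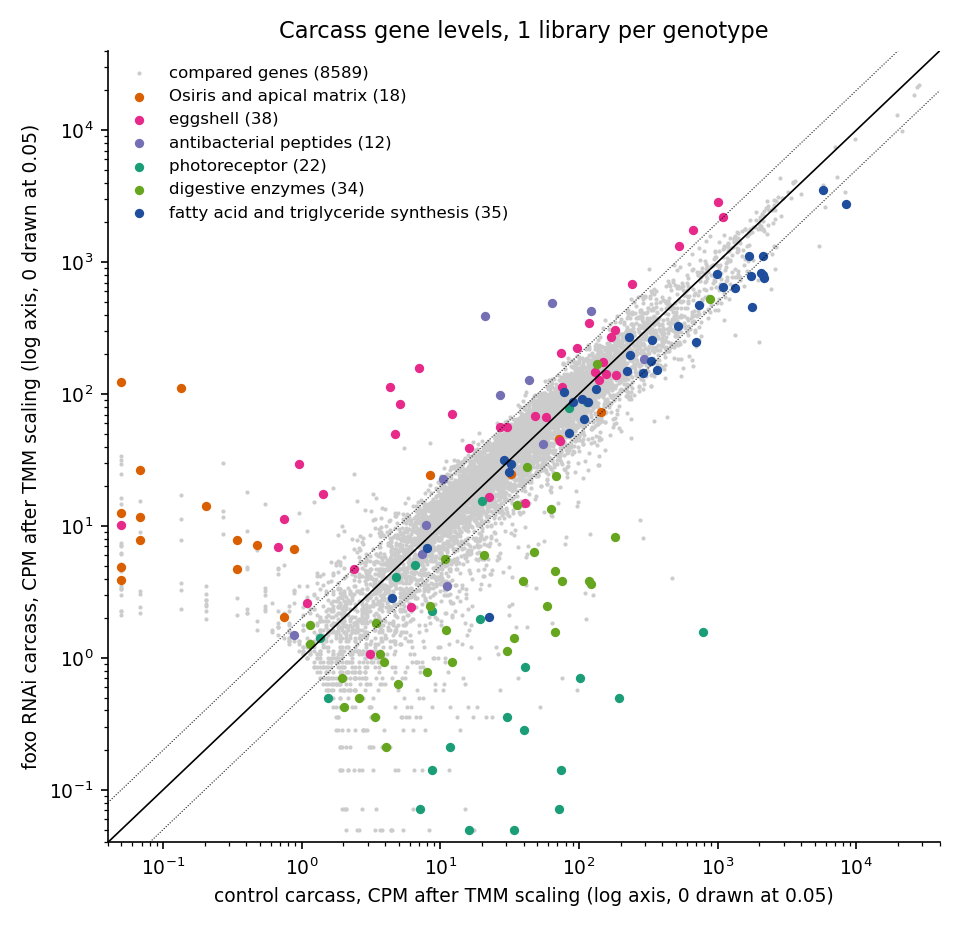
Each point is 1 compared gene, by its CPM in the control carcass library (x, log axis) and in the foxo RNAi carcass library (y, log axis), with 6 groups of genes coloured. The solid line is equality and the dotted lines are 2-fold. The 9 Osiris genes lie above the solid line, as do 6 of 9 apical matrix genes, while 21 of 22 photoreceptor, 31 of 34 digestive enzyme and 32 of 35 lipid synthesis genes lie below it.

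Genes whose RNA is far more abundant in thorax or gut made up a larger share of the lower genes than of all compared genes. A gene was marked when its mean CPM in the 2 thorax or the 2 gut libraries was at least 5 times its mean CPM in carcass. The mark fell on 921 compared genes, 559 for thorax and 388 for gut, with 26 in both. Among lower genes 344 were marked, 39.2%, and among higher genes 11, 3.75%, against 10.7% of all compared genes. The median log2 ratio was -0.90 for gut-marked genes, -0.82 for thorax-marked genes and 0.12 for unmarked genes. Summed, the gut-marked genes took 0.957% of control reads and 0.603% of foxo RNAi reads, and the thorax-marked genes 1.90% and 1.51%. Without marked genes, 282 higher and 533 lower genes remained. The part of thorax or gut RNA in the calls was not tested beyond these values. Head was not analysed here, so the mark cannot catch head RNA.

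**Figure D2:**
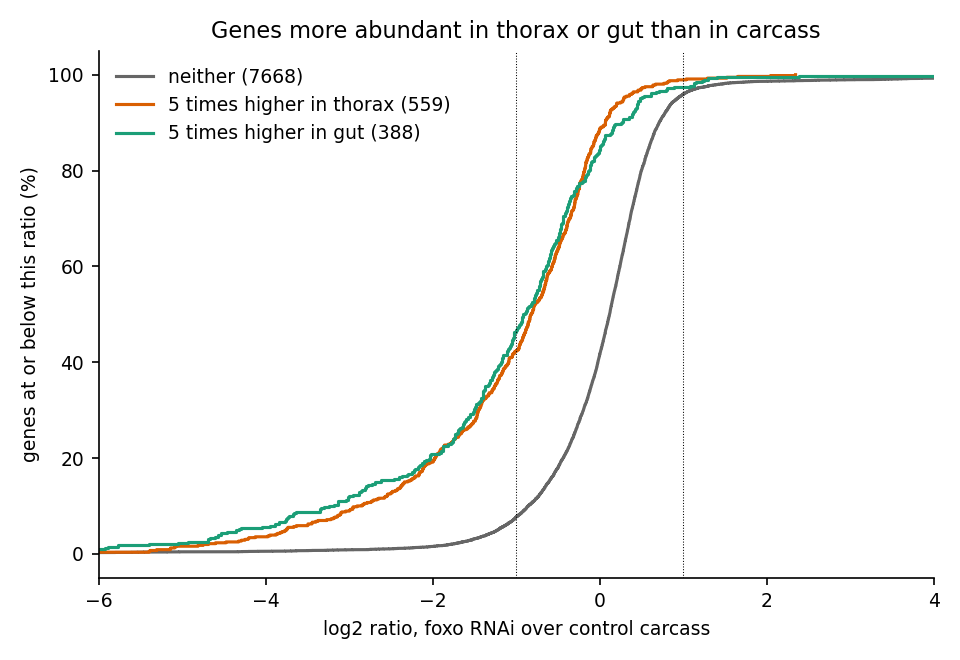
The lines give the share of genes (y, percent) at or below each log2 ratio (x) for genes marked for thorax, genes marked for gut and unmarked genes. The curves of both marked sets lie to the left, with medians of -0.82 and -0.90 against 0.12.

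The label "fat body" was checked against markers. Of 28 fat body genes on the list used, 18 were compared, and their reads summed to 10.5% of the control library and 7.44% of the foxo RNAi library. The yolk protein genes Yp1, Yp2 and Yp3, made in female fat body and ovary, took most of these, and without them the sums were 3.51% and 1.76%. The larval markers Lsp1alpha, Lsp2, Fbp1 and Fbp2 had too few reads to be compared. The libraries also held RNA of other tissues, whose markers are given below beside the results. Of 22 male reproductive genes only Acp53C14a reached 30 reads, with 47 and 14.

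Among the genes with the largest ratios were those of the Osiris family. They encode insect membrane proteins of cuticle-secreting cells, and 8 of the 9 compared members of the Osiris list were higher, with a median log2 ratio of 6.86. Osi6 (chromosome 3R, 6234708 to 6237181) went from 0 reads in the control to 1735 after foxo RNAi and was at least 606-fold higher. Osi7 (3R, 6248994 to 6251683) had 2 and 1567 reads, a ratio of 657 (227 to 6789). Osi20 had 0 and 176 reads and was at least 61.5-fold higher. In each of these genes the control library was at or next to 0, while the foxo RNAi library held over 100 reads.

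The other Osiris genes showed the same order of libraries. Osi15 had 1 and 166 reads, Osi9 1 and 110, and Osi14 3 and 199, with ratios of 116 (30.8 to 6915), 77.2 (20.3 to 4596) and 59.8 (23.5 to 340). Osi18 had 0 and 69 reads, and Osi19 had 7 and 101. The member not called, Osi24, had 11 and 29 reads. Along chromosome arm 3R the genes Osi6, Osi7, Osi9, Osi14, Osi15, Osi17, Osi18, Osi19 and Osi20 are 9 compared genes in a row, from 6234708 to 6341424, and each was higher. It was the longest run of neighbouring higher genes. Osi17, which was not on the list and was picked out after its values were seen, had 3 and 43 reads. In thorax, Osi6 had 3 control and 220 foxo RNAi reads, whereas Osi7 had 2 and 1, and in gut neither passed 2 reads in a library.

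Genes of the apical matrix, a sheet of zona pellucida domain proteins that shapes hairs and cuticle, were higher for 6 of 9 compared members, with a median log2 ratio of 2.88 that became 1.53 over the 7 members with at least 100 reads. The gene dyl (dusky-like) had 1 control and 374 foxo RNAi reads, a ratio of 262 (70.0 to 15529). Its relatives nyo, mey, neo, m and tyn had 0 and 55, 5 and 110, 13 and 94, 5 and 66, and 124 and 342 reads. The members not called were dpy, pio and qsm, each with a log2 ratio below 0. The 3 uncalled genes had the most control reads of the 9, with 2144 for dpy, 1053 for pio and 475 for qsm. Of the called genes, tyn and m overlap other genes.

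Cuticle genes as a whole were mixed: of 36 compared, 7 were higher and 5 lower, with a median log2 ratio of 0.15. Over all genes 3.41% were higher and 10.2% lower. TwdlF, a Tweedle cuticle protein gene, had 2 and 241 reads, a ratio of 101 (34.6 to 1049). The chitin synthase gene kkv had 16 and 130 reads, a ratio of 8.29 (5.05 to 15.3), although it overlaps another coding gene, so its reads are less certain. The chitin deacetylase gene verm had 281 and 718 reads, the chitinase genes Cht6 and Cht7 had 126 and 252, and 50 and 135, and obst-B and Ccp84Ac had 39 and 92, and 0 and 32. On the other side, Cpr72Ec, a protein of the corneal lens, had 443 and 5 reads, and yellow-f2 and Ddc, genes of pigment and sclerotin chemistry, had 1160 and 376, and 438 and 189. Cpr73D and Cpr62Ba were the other lower members.

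Several genes that respond to the moulting hormone ecdysone in the imaginal discs were higher. ImpE2 went from 0 to 229 reads and was at least 80.0-fold higher. ImpL1 had 2 and 159 reads, and its ratio was 66.9 (22.7 to 694), while ImpE1 had a ratio of 41.2 (20.2 to 123) on 6 control reads. The nuclear receptor gene Hr4, which overlaps another gene, had 81 and 553. These were the 4 higher genes among 25 compared on the ecdysone and juvenile hormone list, whose median was -0.09. The receptor gene EcR had a log2 ratio of 0.01, and Hr38, an orphan nuclear receptor gene marked for thorax and overlapping another gene, was lower with 142 and 17 reads. The list's median turned to 0.07 with total-count scaling.

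Further genes near 0 in the control included proteases and a transcription factor. Np, a membrane serine protease that acts on the apical matrix, had 0 and 105 reads and was at least 36.7-fold higher. The serine protease homologue gene mas had 1 and 127 reads, a ratio of 89.1 (23.5 to 5300). The gene rib, a BTB-domain regulator of epithelial tubes, had 2 and 111 reads. Among numbered genes, CG31813, CG3397 and CG13159 had 0 control reads and 478, 446 and 412 foxo RNAi reads, at least 167-fold, 156-fold and 144-fold higher.

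In all, 61 higher genes had at most 5 control reads, and together they held 10453 reads of the foxo RNAi library. Of these 61 genes, 50 averaged under 1 CPM in both the thorax and the gut pair. Of 26 compared genes that pattern the embryo and nervous system, 4 were higher (sim, Scr, nerfin-1 and rib) and 3 lower (pros, Dr and fkh). Over all genes 3.41% were higher and 10.2% lower. The list's median was -0.12 and became 0.04 with total-count scaling. That list was added after values were seen. The calls of Scr and pros, both marked for thorax or gut, were lost with RPKM.

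**Figure D3:**
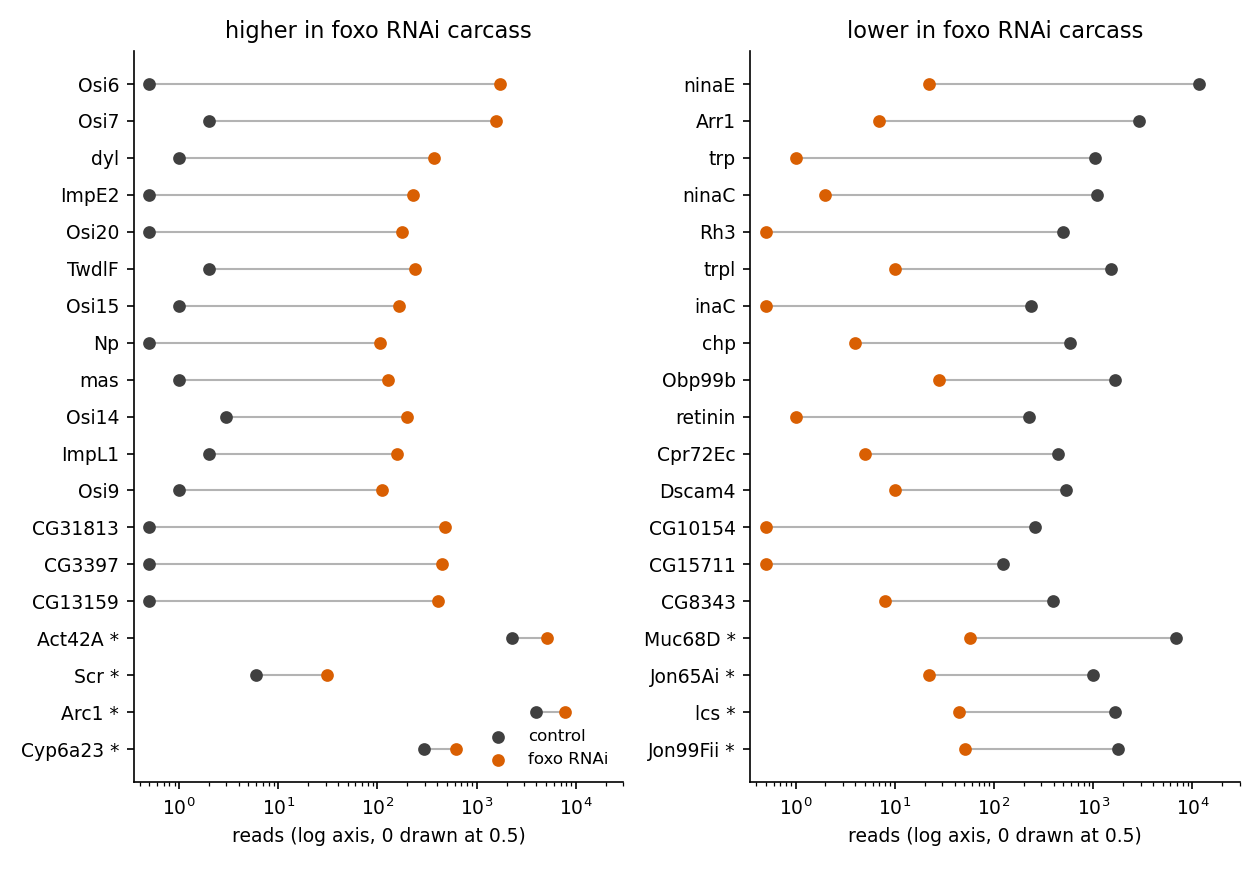
Reads in the control (dark) and foxo RNAi (orange) carcass library on a log axis for the 19 genes per direction chosen by the rule for named genes, with 0 reads drawn at 0.5. An asterisk marks genes at least 5 times more abundant in thorax or gut. On the left the control is at 0 to 3 reads for all 15 unmarked genes, and on the right the foxo RNAi library is at 0 to 28 reads for all 15 unmarked genes.

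Eggshell genes took a larger share of reads in the foxo RNAi carcass, although the eggs had been removed from both. Follicle cells of the ovary secrete the vitelline membrane first and the chorion after it. Of 14 compared vitelline membrane genes 7 were higher and 1 lower, with a median log2 ratio of 1.23, and their summed share was 0.300% of control and 0.833% of foxo RNAi reads. Vm26Aa had 14858 and 39846 reads, a ratio of 2.81 (2.76 to 2.87). Vm26Ab had 9807 and 24551, Vm34Ca 7761 and 18612, and Vml 3571 and 9560. The palisade gene psd had 1100 and 2887 reads, Vm26Ac 239 and 546, and ndl, a protease gene of the eggshell that overlaps another gene, 1429 and 3155. The 7 ratios were alike, from 2.31 for ndl to 2.81. The lower gene was Fcp3C, with 91 and 34 reads.

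Chorion genes spread more widely. Of 24 compared, 12 were higher and 2 lower, with a median of 1.04. Cp19 (3L, in the chorion cluster spanning 8726791 to 8732599) had 103 and 2226 reads, a ratio of 22.6 (18.6 to 27.9). Cp16 had 70 and 700 reads, and its ratio was 10.4 (8.19 to 13.6), while Cp18 179 and 1001, a ratio of 5.85. Their neighbour in the same cluster, Cp15, had 331 and 232 reads and a log2 ratio of -0.44, so the 4 genes did not move together.

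Femcoat had 14 and 416 reads, and CG13084, CG13083 and CG31926 had 64 and 1581, 76 and 1193, and 0 and 143. CG12716 and CG15571 had 21 and 247, and 11 and 158. The 5 chorion genes with the most control reads did not show such ratios: dec-1, which had 16222 and 30916 reads, sat just under the rule at 2.00 (1.96 to 2.04), and yellow-g, yellow-g2, CG4009 and CG13114 had log2 ratios between -0.39 and 0.22. The lower genes were Muc12Ea, with 604 and 210 reads, and CG14187, with 46 and 15.

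Oocyte and germline genes showed a smaller shift of one sign. Leaving out the yolk proteins, 23 members were compared, and each had a log2 ratio above 0, with a median of 0.81. Their reads summed to 0.465% of the control library, and their share was larger in the foxo RNAi library. Of these, 5 were called higher, against 3.41% of all genes. The yolk receptor gene yl had 15528 and 29942 reads, a ratio of 2.02 (1.98 to 2.06). The germline genes vas, exu, aub and orb had 834 and 1780, 2211 and 4430, 699 and 1355, and 3703 and 7074 reads, with vas, exu and aub overlapping other genes. The calls of yl, aub and orb were lost with DESeq2 size factors. In contrast, the yolk protein genes Yp1, Yp2 and Yp3 had log2 ratios of -0.60, -0.36 and -0.49. In bulk tissue, more cells of a type and more RNA per cell cannot be told apart, and this holds for each group of genes described here. Ovarian tissue left in the dissected carcass was not measured in any other way, and its part in these values was not tested.

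Antibacterial peptide genes, which the fat body transcribes after the Imd pathway senses bacterial cell walls, were higher for 6 of 12 compared and lower for 1, with a median of 0.93. Dro had 311 and 5504 reads, a ratio of 18.5 (16.6 to 20.9). Dpt had 950 and 6918, a ratio of 7.63 (7.13 to 8.18), and DptB, which overlaps another gene, 1802 and 5953. AttA had 396 and 1396 reads, AttB 646 and 1793, and CecA1 153 and 318. AttA and AttB, and CecA1 and CecA2, are near-identical copies between which reads can be split. The lower gene was AttD, with 164 and 49 reads, and AttC had 4326 and 2610 without being called.

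The Toll pathway's effectors did not share this. Of 19 compared, IM23 and CG5791 were higher and Drsl4 lower, against 3.41% and 10.2% of all genes, and the median was -0.55. Drs, the classical Toll readout, had 10203 and 8205 reads, and IM2 had 19682 and 10945. Of 30 recognition and signalling genes compared 1 was higher and 2 lower, not above the 3.41% and 10.2% of all genes. PGRP-SC2, an amidase gene, was higher with 166 and 348 reads. PGRP-LC, the Imd receptor, was lower with 1992 and 891, and PGRP-SC1b, marked for gut, was lower with 31 and 1. The stress peptide gene TotC was higher, with 3489 and 7454 reads, and TotA had 5103 and 8746 without reaching the rule. The thioester protein genes Tep2 and Tep4 were lower, at ratios of 2.04-fold and 2.03-fold below the control. Haemocyte markers summed to 1.08% and 0.897% of reads, with LanA and LanB2 higher and Tep4 lower among 19, against the same shares of all genes. The calls of Tep2, Tep4 and PGRP-LC were lost with total-count scaling and with RPKM, and that of LanB2 with DESeq2 size factors.

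In thorax, Dro, Dpt, DptB, AttA and AttB had log2 ratios of 1.10, 1.34, 1.11, 1.43 and 0.88, with the same sign as in carcass, from other libraries of the same crosses.

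Genes of fatty acid and triglyceride synthesis were lower or near equality in the foxo RNAi carcass. Of 35 compared, 11 were lower and 0 higher, against 10.2% and 3.41% of all genes. A log2 ratio below 0 was found for 32 of the 35, and the median was -0.65. Together they made up 3.40% of control reads and 1.83% of foxo RNAi reads. The route begins with acetyl-CoA. AcCoAS, which makes it from acetate, had 25700 and 10958 reads, and ATPCL, which makes it from citrate and overlaps other genes, 19773 and 9011. The malic enzyme gene Men, a source of NADPH, had 31762 and 10686 reads and was 2.83-fold lower (2.77 to 2.90). ACC, the carboxylase that commits acetyl-CoA to fatty acids, overlaps another gene and stayed outside the rule at 1.90-fold lower, with 31152 and 15623 reads.

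Further along, the fatty acid synthase gene FASN1 had 124031 and 38690 reads. Desat1, the main fatty acid desaturase, had 85019 and 49173 reads and was not called. The activating and uptake genes Acsl and Fatp had 31190 and 11212, and 4259 and 2015 reads. The glycerophosphate oxidase gene Gpo-1 had 10354 and 3517 reads. For glycerolipid assembly, the phosphatidate phosphatase gene Lpin had 5420 and 2148 reads. CG1942, of the diacylglycerol acyltransferase family, had 329 and 29 reads and was 10.7-fold lower (7.39 to 16.4). The other diacylglycerol acyltransferase gene, mdy, had 1594 and 907 reads and was not called. The droplet-coat genes were both lower, Lsd-1 with 25891 and 6393 reads and Lsd-2 with 30448 and 11625. Acsl, Lpin and Lsd-1 overlap other genes. The regulators were closer to equality, with log2 ratios of -0.65 for SREBP, -0.23 for Mondo and -0.20 for SCAP.

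**Figure D4:**
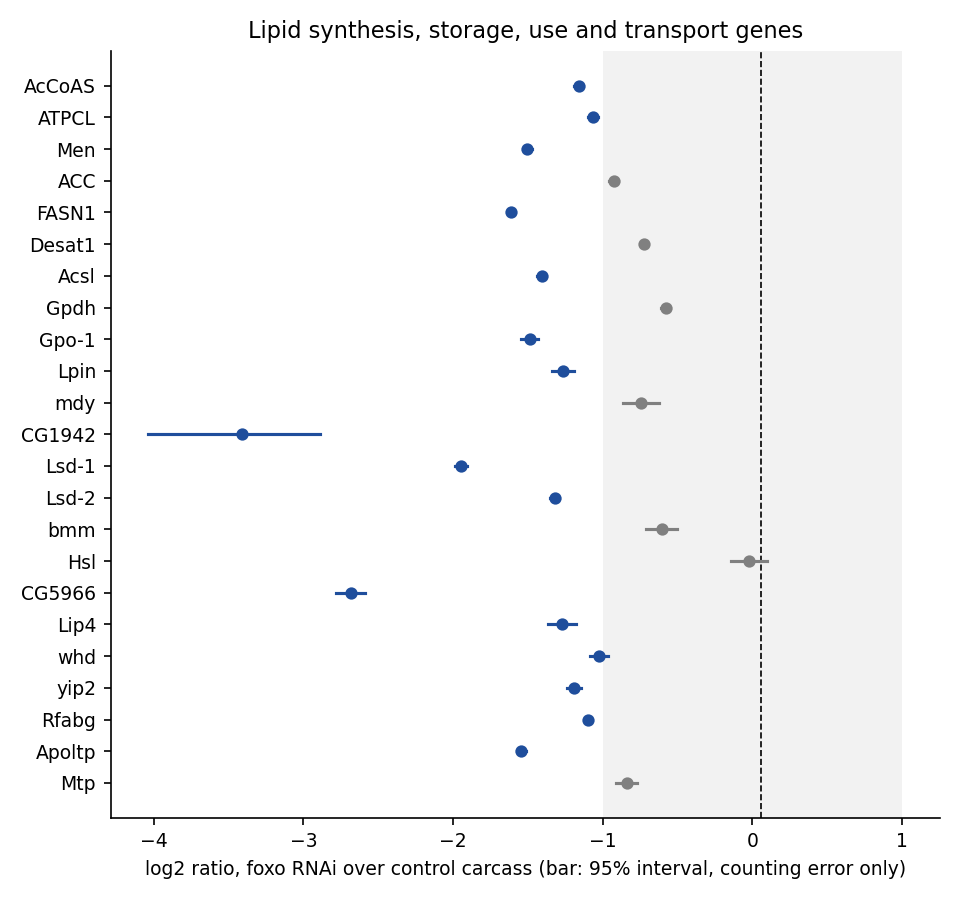
Log2 ratios (points) with 95% intervals of counting error (bars) for genes of lipid synthesis, storage, use and transport, ordered by role from acetyl-CoA supply at the top to lipoproteins at the bottom. The 23 genes were selected from 3 lists by role, and 7 members of those lists with log2 ratios above 0 are not shown. Blue genes were called lower, the grey band is within 2-fold, and the dashed line is the median of all genes at 0.06. The points shown run from -3.41 for CG1942 to -0.02 for Hsl, whose bar is the only one of those shown to cross the dashed line.

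Genes that break down fat were also mostly below the control. Of 29 genes of lipolysis and fatty acid oxidation 5 were lower and 0 higher. Their median was -0.61, and over all genes 10.2% were lower. CG5966, a lipase gene, had 6379 and 946 reads and was 6.43-fold lower (6.01 to 6.89). The lipase genes Lip4 and PAPLA1 had 3429 and 1355, and 6348 and 2963 reads. The carnitine palmitoyltransferase gene whd and the thiolase gene yip2 had 6774 and 3178, and 12603 and 5266. The triglyceride lipase genes bmm and Hsl, in contrast, had log2 ratios of -0.60 and -0.02. Of 17 genes of lipid transport 3 were lower, against 10.2% of all genes. Rfabg, the apolipophorin precursor that overlaps another gene, had 313837 and 139594 reads, and Apoltp 38092 and 12457. The other lower gene was Npc2d, marked for gut, with 56 and 3. Mtp, which loads lipid onto the apolipoprotein, had 4785 and 2548 reads and was not called. The calls of PAPLA1, whd and Rfabg were lost with total-count scaling and with RPKM.

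Fat body markers had the same direction as the lipid genes, and some genes are on both lists. Of the 18 compared 10 were lower and 0 higher, with a median of -1.11. Lsp1beta, a storage hexamerin gene, had 1419 and 200 reads and was 6.75-fold lower (5.83 to 7.89). The glucosidase gene tobi, which overlaps another gene, had 1585 and 323. Markers that were not lower included Fdh, with 3507 and 3763 reads, and Tsf1, the transferrin gene, with 7093 and 13322. The part of a smaller fat body share in the lipid values was not tested.

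Carbohydrate genes had fewer calls. Of 28 genes of glycolysis, glycogen and trehalose 3 were lower, near the 10.2% of all genes, with a median of -0.40. Tps1, which makes the blood sugar trehalose and overlaps another gene, had 88072 and 37108 reads and was 2.26-fold lower (2.24 to 2.29). CG10924, a phosphoenolpyruvate carboxykinase gene, had 303 and 67 reads and the transporter gene sut2 53 and 12, both marked for thorax or gut. Oxidative phosphorylation had 0 calls among 45 genes, with a median of -0.16 that became 0.00 with total-count scaling. Also without calls were the cytosolic ribosome (78 genes, median 0.07), the proteasome (30 genes, 0.12), autophagy (22 genes, -0.28) and reference genes (16 genes, 0.14).

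In purine and amino acid metabolism 8 of 33 compared genes were lower and 0 higher, against 10.2% and 3.41% of all genes. Their median was -0.58. The purine synthesis genes Prat2 and ade5 had 9241 and 2750, and 28967 and 10360 reads. The folate genes pug and Nmdmc had 11102 and 4918, and 4290 and 1799, and Gnmt, which methylates glycine, had 250 and 35.

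Of 56 cytochrome P450 genes 18 were lower and 3 higher, against 10.2% and 3.41% of all genes, with a median of -0.61. Cyp4e3 had 9873 and 2299 reads and was 4.10-fold lower (3.91 to 4.29). Cyp28a5 had 1074 and 277 and Cyp6g1, an insecticide-resistance gene that overlaps its neighbour, 7132 and 2626. Cyp12d1-d was higher, with 0 and 48 reads, while its near-identical copy Cyp12d1-p was lower, with 130 and 58, and reads of such a pair can be assigned to either. Glucuronosyltransferase genes were lower for 9 of 21, and glutathione transferases for 6 of 30, against 10.2% of all genes.

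Insulin and TOR signalling genes had 0 calls among 25 compared, with a median of -0.07 that turned to 0.09 with total-count scaling. Genes described as Foxo targets were lower for 3 of 21 and higher for 1, against 10.2% and 3.41% of all genes. Their median log2 ratio was -0.34, and 3 of the 21 were marked. The lower ones were tobi, CG10924 and Lip4, and the higher one was Hsp27, a small chaperone gene with 947 and 1844 reads, whose call was lost with DESeq2 size factors. Thor, the translation repressor often read as a measure of Foxo activity, had 5890 and 4762 reads and a log2 ratio of -0.24, and InR, the insulin receptor gene, had 971 and 808. Of the genes around the adipokinetic hormone, the fly's glucagon-like signal, only the receptor gene AkhR was lower among 14, which is not above the 10.2% of all genes.

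Genes of secreted signals were lower for 3 of 34, which is not above the 10.2% of all genes. CCHa2, a nutrient-responsive peptide gene, had 1992 and 582 reads and was 3.26-fold lower (2.98 to 3.59). Lst, the limostatin gene, had 7690 and 2577 and was 2.85-fold lower (2.72 to 2.98). The satiety peptide gene fit, which overlaps another gene, had 2135 and 953, a call lost with total-count scaling and with RPKM. The cytokine gene upd2, with 8 control reads and none after foxo RNAi, was below the read minimum.

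Within the clock loop 4 of 18 genes were lower and 0 higher, against 10.2% and 3.41% of all genes, with a median of -0.36. Clock and cycle drive per and tim, and a second loop runs through vri and Pdp1. The repressor vri had 2474 and 689 reads and was 3.42-fold lower (3.15 to 3.73). Its counterpart Pdp1 had 3360 and 1297, and the repressor cwo 5827 and 2260. Pdfr, the receptor for the clock neuropeptide, had 753 and 337, a call lost with total-count scaling and with RPKM. The first loop was not called: tim had 1670 and 975 reads, Clk 816 and 415, per 302 and 315, and cyc 782 and 822. Of 14 clock output genes compared 4 were lower and 0 higher, against the same 10.2% and 3.41%, and 5 had log2 ratios above 0. Their summed share was 0.240% of control and 0.249% of foxo RNAi reads. The clock-controlled genes Obp99b and Slob were lower, with 1662 and 28, and 235 and 33 reads. Slob overlaps another gene. In thorax Obp99b had 4086 and 15 reads, the same direction.

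**Figure D5:**
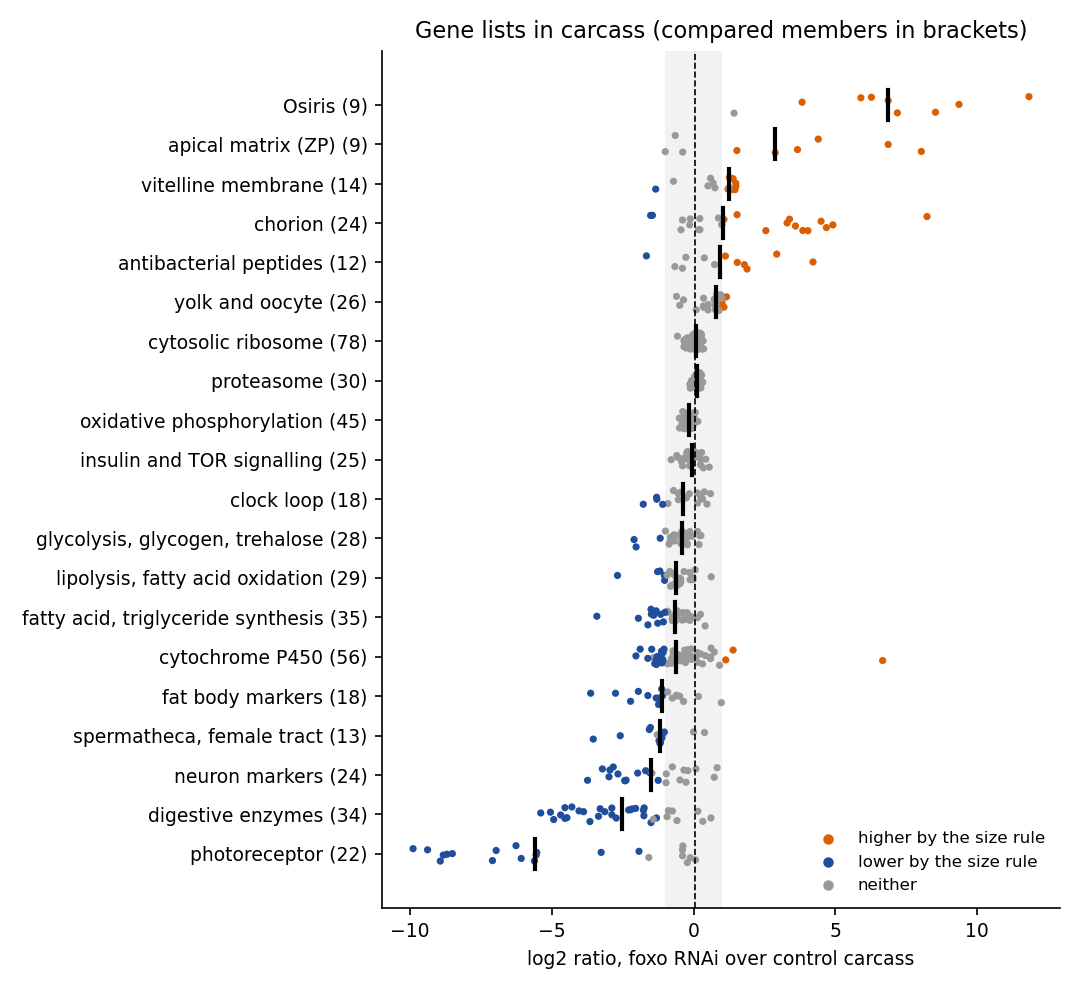
Log2 ratios of the compared members of 20 gene lists, 1 point a gene (vertical scatter is only for display), with the median of each list as a black bar. The grey band is within 2-fold and the dashed line is the median of all genes at 0.06; list medians run from -5.59 for photoreceptor genes to 6.86 for Osiris genes, and ribosome and proteasome genes cluster at the dashed line.

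Genes of the eye included some of the lowest ratios. Of 22 photoreceptor genes compared, 15 were lower and 0 higher, with a median of -5.59, and their summed share went from 0.158% of control reads to 0.0212% of foxo RNAi reads. The opsin gene ninaE (3R, 19886255 to 19888206) had 11546 and 22 reads and was 489-fold lower (330 to 799). The arrestin gene Arr1 had 2867 and 7, and was 365-fold lower (189 to 972). The channel gene trp had 1051 reads and 1, a ratio of 669-fold lower (180 to 39630).

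Other parts of the phototransduction machinery showed the same. The myosin gene ninaC had 1088 and 2 reads, and chp, a rhabdomere adhesion gene, had 589 and 4. Rh3, an ultraviolet opsin gene, had 499 and 0, at least 159-fold lower, and the kinase gene inaC had 238 and 0, at least 75.7-fold lower. The channel gene trpl had 1505 and 10 reads and Rh4 606 and 12, though both overlap other genes. The lens genes retinin and Cpr72Ec had 223 and 1, and 443 and 5. Photoreceptor-list genes that are also used outside the eye were not called, such as norpA with 1674 and 1218 reads and rdgB with 1248 and 1096. Eye transcripts were therefore in the control carcass library, and nearly absent from the foxo RNAi one. In thorax ninaE had 16 and 768 reads, and in gut 4 and 11. The part of eye RNA in the values of other genes was not tested.

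Antennal genes followed. Of 7 chemosensory genes compared, on a list added after values were seen, 5 were lower: the co-receptor gene Orco with 38 and 0 reads, a10 with 50 and 0, Obp83a with 65 and 0, Obp56h with 31 and 0, and Obp83b with 51 and 1. Odorant-binding protein genes were lower for 10 of 20, against 10.2% of all genes. The 10 include a10, Obp83a, Obp83b and Obp56h, which are on both lists. Neuronal genes were lower for 13 of 24, with a median of -1.50, 16 of the 24 being marked for thorax or gut. Over the 8 unmarked genes the median was -0.24. The sodium channel gene para had 245 and 17 reads, the synaptic genes Syt1 and nSyb 485 and 58, and 463 and 69, and the active-zone gene brp 327 and 79. The neuronal share of reads was 0.0451% and 0.0241%.

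Digestive enzyme genes were lower for 26 of 34 and higher for 0, with a median of -2.51, and 32 of the 34 were marked. Over the 2 unmarked genes the median was -0.21. The list's share was 0.206% of control and 0.0898% of foxo RNAi reads, against 16.3% and 11.5% in the gut libraries. The protease gene Jon65Ai had 990 and 22 reads with a log2 ratio of -5.39. Its relatives Jon99Fii and Jon25Biii had 1789 and 51, and 2703 and 116, and the amylase genes Amy-p and Amy-d had 584 and 54, and 700 and 90. The Jonah and amylase genes are families of near-identical copies, so single values are less certain than the list.

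Gut structure genes were lower for 7 of 16. The mucin gene Muc68D had 6880 and 57 reads and was 114-fold lower (88.7 to 152), CG14125 had 1422 and 8, and CG10154 had 260 and 0, at least 82.7-fold lower. In thorax, Muc68D ran the other way, with 38 and 38413 reads. The gut had been removed from both carcasses. Gut RNA left behind was not measured apart from these genes, and its part in the values of genes that the gut also expresses was not tested.

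Female tract genes ran opposite to the oocyte and eggshell lists, whose medians were above 0. Of 13 spermathecal and female tract genes 10 were lower and 0 higher, with a median of -1.18. The spermathecal protease genes Send2 and Send1 had 615 and 50, and 2009 and 854 reads. CG17234, CG17239 and CG31681 had 633 and 100, 2045 and 660, and 2099 and 859. On chromosome arm 2L, CG4267, CG17239, CG17234, Send1 and CG31681 are a run of 5 compared genes from 2242378 to 2286873, each lower.

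Muscle was nearly level. Sarcomere genes summed to 0.989% and 1.02% of reads, with a median of 0.00 over 33 genes that became 0.16 with total-count scaling, and 22 of the 33 were marked. Act88F, the flight-muscle actin gene whose promoter gives the driver its name, was lower with 116 and 23 reads, as were the long genes sls, Msp300 and Strn-Mlck, and all 4 were marked for thorax. The calls of sls and Strn-Mlck were lost with total-count scaling and with RPKM. The actin gene Act42A, expressed in many cells and marked for gut, was higher with 2262 and 5133. The myosin gene Mhc had 12464 and 10709 reads and was not called. Another thorax-abundant gene, lcs, had 1642 and 44 reads in carcass.

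Oenocytes, which make cuticular hydrocarbons, gave 4 lower genes of 19, against 10.2% of all genes. Their median was -0.75 and their shares were 1.93% and 1.23%. FASN3, a fatty acid synthase gene of these cells, had 38933 and 18269 reads, a call lost with total-count scaling and with RPKM. Malpighian tubule markers were lower for 5 of 32, against 10.2% of all genes, with shares of 0.231% and 0.225%. Metal genes were lower for 3 of 13, against the same 10.2%. MtnA, a metallothionein gene, had 4839 and 1629 reads, and Mco1 and Ctr1B had 371 and 111, and 227 and 82.

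The thorax and gut pairs of libraries, which share no library with carcass, allow the same genes to be read again. In thorax 3.56% of compared genes were higher and 2.72% lower, and in gut 2.22% and 3.18%. Of the 179 genes higher in carcass and compared in thorax, 27 were higher there too, 15.1%, and 6 were lower; these 27 were 11.1% of the thorax-higher genes compared in carcass. Of 778 genes lower in carcass, 68 were lower in thorax, 8.74%, and 85 were higher; the 68 were 33.2% of the thorax-lower genes. In gut, 20 of 125 carcass-higher genes were higher and 2 lower, and 101 of 605 carcass-lower genes were lower, 16.7%, and 31 higher. Those 101 made up 48.8% of gut-lower genes, and the 20 made up 14.0% of gut-higher genes. The share of all genes compared in both carcass and thorax that were higher in thorax was 2.96%, and lower 2.50%. For gut the shares were 1.89% and 2.74%.

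A few genes were called the same way in carcass, thorax and gut. Among 7420 genes compared in each, 10 were higher and 19 lower in the 3 tissues. CG3397 had 0 and 446 reads in carcass, 0 and 724 in thorax, and 1 and 50 in gut. CG32302 had 8 and 205, 1 and 430, and 17 and 4808. Cyp12d1-d had 0 and 48, 0 and 61, and 0 and 32, and Cyp6a23 and TotC were also among the 10. The lower ones included Dscam4, a cell-surface immunoglobulin gene that overlaps another gene, with 536 and 10 reads in carcass, 898 and 397 in thorax, and 172 and 7 in gut. CG1942 of the lipid synthesis list and FASN3 of the oenocyte list were among the 19, as were Lsp1beta and Cyp4e3. Of 550 carcass-lower genes compared in the 3 tissues, 441 (80.2%) were lower in neither thorax nor gut, against 95.7% of all 7420 genes. Of 107 carcass-higher genes, 83 (77.6%) were higher in neither, against 95.9%.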

How the data were processed

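Total RNA was made into stranded libraries, per the labels' protocols, and reads were mapped to Release 6 of the fly genome, per the series' design text. Which aligner, annotation and strand setting were used is not stated there, and the counted reads exceed the read number that text gives. Each table deposited by the authors holds unnormalized counts of reads for every gene, and beside them RPKM, which divides by gene length and library total. None of 1541 coding genes lying wholly inside another had a read, so these were treated as not measured. Of 17609 genes, 17565 matched RefSeq names.

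From the counts, TMM factors of the 2 carcass libraries came from edgeR 4.0.16 in R 4.3.3 and exact intervals from scipy 1.17.1. The ratio and the rule were run on simulated Poisson counts with known fold changes. These hold counting error only, so the run checks the calculation and says nothing about spread between flies. Alternatives were total-count scaling, DESeq2 1.42.0 size factors, read minimums of 10 and 100, 3-fold, no interval condition, marked genes left out, a pseudocount of 5, and log2(RPKM + 0.1). Leaving out genes that overlap another, and adding genes listed at 0 counts, were chosen after seeing the data. The members, the 48 gene lists and the rules were chosen with earlier results of these data known. Named were foxo and upd2; per direction, those called genes whose interval bound nearest to equality was largest (12 with a name, 3 known by number, 4 marked); in each list up to 6 called members by near bound; and members that show a pathway by role. Promoter motifs were not analysed here.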

Additional observations from a re-analysis of the deposited data

Results flagged for a closer look

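Several genes named here were called in opposite directions in carcass and in another tissue, and this difference was not tested, since each side is 1 library. Some eye genes that were lower in the foxo RNAi carcass were higher in the foxo RNAi thorax. Their thorax log2 ratios were 4.52 for ninaE, 4.65 for Arr1, 3.54 for trp, 2.86 for ninaC, 3.07 for Rh3 and 1.87 for chp. The photoreceptor list as a whole did not share this. Of its 19 members with enough thorax reads, 6 gained a higher call there and 2 a lower call, at a median log2 ratio of 0.14. The gene trpl, lower in carcass, had 160 and 429 thorax reads and was not called in thorax. In reads, ninaE had 16 in control and 768 in foxo RNAi thorax. Muc68D had a thorax log2 ratio of 8.94. The thorax-abundant gene lcs, lower in carcass, had 241 and 3928 reads in gut and a gut log2 ratio of 3.82.

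Reads also sat in genes that the count column lists at 0. In the RPKM column, 655 such genes had values above 0 in the control carcass, and RPKM times length gave 77737 reads, 0.495% of the library. In the foxo RNAi carcass 576 such genes gave 48364 reads, 0.363%. All values were whole reads within 0.001. With these reads, 122 more genes reached the minimum, of which 10 were higher and 18 lower, with a median log2 ratio of -0.47. Most reads were of CR42862, with 28466 and 16934, and of ribosomal RNA pseudogenes. The dosage compensation RNA roX1 had 30 and 141 reads, and the heat-shock RNA Hsromega 2057 and 1088.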

How the results depend on the processing

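No paired analysis was possible because the groups share only replicate number 1. The count of higher genes, 293, became 478 with total-count scaling, 132 at 3-fold and 462 with RPKM, and the count of lower genes, 877, became 449 at 3-fold and 533 without marked genes. The other alternatives kept both counts within 1.5 times: 222 to 329 higher and 631 to 997 lower. Splits with over 10 points more higher calls were 41.8% with total-count scaling and 42.3% with RPKM. The cause was not tested, except that fewer genes can pass a larger fold and that total-count scaling adds 0.17 to each log2 ratio. RPKM also divides by library total, and gene length cancels in a ratio, so it is largely the same check as total-count scaling. The digestive enzyme median, -2.51, became -3.30 at 100 reads (23 genes) and -0.21 without marked genes, which leaves 2 genes. The marked set of 921 became 479 at 10 times. No other median among the 10 lists of lipid synthesis, fat body, photoreceptor, Osiris, chorion, vitelline, antibacterial, clock, spermatheca and digestive genes moved by over 1.5-fold. Of 194 named genes, none changed direction, and 23 lost the call with total-count scaling, 6 with DESeq2 factors, 25 with RPKM and 1 with a pseudocount of 5. Medians of 8 lists, each within 0.17 of 0, changed sign with total-count scaling. Genes near the read minimum differed little: the median was -0.75 over 131 genes with 25 to 29 reads and -0.62 over 114 with 30 to 34. Without replicates, no ratio can be set against the spread between flies.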

Other observations

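Called genes often lay beside each other. Of the higher genes 65, or 22.2%, had a higher gene as the next compared gene on at least one side, against 6.58% of all compared genes, and for lower genes the shares were 37.3% and 18.9%. Besides the Osiris run there was 1 other higher run of at least 4 genes, Vm26Ab, Vm26Ac, Vm26Aa, psd and CG13992 on 2L from 5957004 to 5967752. There were 11 lower runs, among them yip7 and the genes Jon65Aiv, Jon65Aiii, Jon65Aii and Jon65Ai on 3L from 6035216 to 6054443.

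On chromosome 4, 15 of 75 compared genes were lower and 0 higher, against 10.2% and 3.41% of all genes. The median log2 ratio there was -0.34, against 0.16 over 1387 genes on X and medians of 0.03 to 0.04 on the large autosomal arms. With genes cut into 5 equal groups by length, the group of longest genes had a median of -0.17, and the others 0.07 to 0.14. With 5 equal groups by mean level, the lowest had a median of -0.34, and the others -0.03 to 0.17.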
